A study of Homo sapiens with 6 samples.

Results

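The tumour necrosis factor (TNF) superfamily was described in 6 RNA-seq libraries of PLC/PRF/5 cells, an established line from a human hepatocellular carcinoma that carries integrated hepatitis B virus DNA. Members were the protein-coding rows of the deposited count table with a TNFSF or TNFRSF symbol, together with TNF, LTA, LTB, LTBR, FAS, FASLG, CD27, CD40, CD40LG, CD70, EDAR, EDA2R and NGFR. This gave 45 members of 60623 genes, 17 ligands and 28 receptors. All libraries came from cells given a lentivirus: 3 are labelled as carrying a ZFP64 overexpression vector and 3 a control vector, and both kinds of cells were grown in DMEM with fetal bovine serum. ZFP64 is a zinc finger transcription factor, and the series title places it between PKCα and the macrophage growth factor CSF1. The sources used here do not give the vector's promoter, whether the cells are 1 clone or a pool, or whether replicates grew as separate cultures. The p-values therefore cover no more than the variation among these 6 libraries, which may be technical. In bulk RNA, fewer cells that make a transcript and less of it in each cell cannot be told apart.

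Ligands of this superfamily are mostly trimeric membrane proteins, some of which are shed, and they cluster receptors with cysteine-rich extracellular domains. Receptors with a death domain can recruit FADD and caspase-8 to start apoptosis, or TRADD and RIPK1 to start NF-kB signalling. Other receptors bind TRAF adaptors, and decoy receptors bind a ligand without passing on a death signal. In the liver TNF drives inflammation and regeneration, and FAS and TRAIL receptors are known mediators of hepatocyte death.

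Promoter sequences are shown for members that the tests below turn on and that had an entry in the RefSeq promoter table used (GRCh38.p14), which held 29 of the 45 members, because most signals of these receptors end in NF-kB and AP-1. Each runs from 250 bases before to 50 after the start site, 5′ to 3′ on the gene's strand. Capitals mark matches, on either strand, to GGGACTTTC, the start of the classical NF-kB site, or to the AP-1 letters TGANTCA. The letters searched were chosen after the sequences had been seen.
LTB promoter, chr6:31582376-31582675, minus strand: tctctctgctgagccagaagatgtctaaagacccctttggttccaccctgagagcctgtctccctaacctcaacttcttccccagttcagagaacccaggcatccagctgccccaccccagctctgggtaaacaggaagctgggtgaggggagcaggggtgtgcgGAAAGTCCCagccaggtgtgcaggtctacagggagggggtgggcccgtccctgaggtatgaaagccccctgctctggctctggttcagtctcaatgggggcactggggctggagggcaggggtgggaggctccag
TNFRSF1A promoter, chr12:6342027-6342326, minus strand: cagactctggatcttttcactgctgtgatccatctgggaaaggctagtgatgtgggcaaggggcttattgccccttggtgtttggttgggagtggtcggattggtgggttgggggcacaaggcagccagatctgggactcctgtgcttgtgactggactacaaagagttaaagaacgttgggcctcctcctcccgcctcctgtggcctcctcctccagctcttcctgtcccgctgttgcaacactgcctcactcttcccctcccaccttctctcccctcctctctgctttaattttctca
TNFRSF1B promoter, chr1:12166741-12167040, plus strand: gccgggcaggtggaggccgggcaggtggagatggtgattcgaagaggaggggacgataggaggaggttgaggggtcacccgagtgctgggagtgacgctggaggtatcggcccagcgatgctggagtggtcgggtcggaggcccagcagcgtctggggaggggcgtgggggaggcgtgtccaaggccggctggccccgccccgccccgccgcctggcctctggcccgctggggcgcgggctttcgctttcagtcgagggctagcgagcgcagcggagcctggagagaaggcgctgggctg
The NF-kB letters occurred in 100 of 27305 promoters of the same length, 0.366% of them, and LTB was the one member of the 29 that held them, as GAAAGTCCC from base -85 counted from the start site. The AP-1 letters occurred in 7.76% of promoters, in 7 of the 29 members and in none of the sequences shown. The start site is that of RefSeq. By the GENCODE position of LTB given below, which runs to base 31582522, the match lies inside the gene. A match of letters is a description of the window and not a measured site. Since the letters were chosen after the sequences had been seen, the shares cannot show that members hold them more often.

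The counts of the targeted gene went against the library labels. ZFP64 was at 35.0, 35.6 and 31.5 CPM in the libraries labelled ZFP64-OE (replicates 1 to 3) and at 142, 160 and 138 CPM in the libraries labelled control, where CPM is counts per 1000000 after TMM scaling. ZFP64 was 4.31-fold lower under the ZFP64-OE label (edgeR adjusted p = 2.31e-12), and the reason was not tested. Directions follow the labels, with control as the baseline, although the ZFP64 counts go against them. If the labels were exchanged, every direction given here would be reversed. The libraries held between 26468949 and 39739674 counts. Mitochondrially encoded mRNAs took 3.19% to 4.38% of the counts in the ZFP64-OE-labelled libraries and 1.87% to 2.69% in the others, ribosomal protein mRNAs 2.39% to 3.13% and 3.14% to 3.83%, and the part of either in the results below was not tested. Of 7 hepatocyte markers 6 had a count in every library, and the exception, TTR, had 12 counts in all. The marker sum, mostly APOB, was 14272 to 19510 CPM in the ZFP64-OE-labelled libraries and 11486 to 16518 CPM in the others (exact permutation p = 0.2). Single markers were called in both directions by edgeR. ALB (1.88-fold, adjusted p = 1.29e-06), AFP (1.71-fold, 5.16e-06) and APOB (1.72-fold, 0.00989) were higher in the ZFP64-OE-labelled libraries, and SERPINA1 (1.76-fold, 0.000431) and APOA1 (-0.59 on the log2 scale, 0.000444) lower. Their part in the results below was not tested.

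Many superfamily genes are best known from lymphocytes and myeloid cells. The 8 lymphocyte markers summed to between 0.587 and 0.906 CPM in the ZFP64-OE-labelled libraries and between 0.393 and 0.820 CPM in those labelled control (exact two-sided permutation p = 0.6, where 3 against 3 cannot go below 0.1), with NKG7 and CD79A as the most abundant and PTPRC and MS4A1 at 0. The 8 macrophage markers summed to 320 to 388 and 522 to 574 CPM (exact permutation p = 0.1), almost all of it LYZ. Without LYZ they summed to at most 0.875 and 1.00 CPM, with CSF1R next and FCGR3A at 0. The 6 fibroblast markers summed to 6.24 to 8.05 and 9.39 to 10.8 CPM with PDGFRB highest in both groups and COL1A2 at 0. COL3A1 was at 0.692 and 3.38 CPM, below and above COL1A1 at 1.59 and 1.42 CPM. The 6 endothelial markers summed to 3.94 to 6.07 and 13.1 to 13.3 CPM, mostly PECAM1 with CDH5 next, and KDR and TEK were at 0. For both lists the exact permutation p was 0.1. By edgeR, LYZ (1.53-fold, adjusted p = 0.000307), COL3A1 (4.86-fold, 3.79e-07) and PECAM1 (2.80-fold, 5.46e-07) were called lower in the ZFP64-OE-labelled libraries. The other tested markers of these lists, NKG7, CSF1R, ITGAM, COL1A1, PDGFRB and CDH5, did not pass. The part of the macrophage, fibroblast and endothelial genes in the results below was not tested.

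The members were ordered by FPKM, the deposited value scaled by gene length and library total. TNFRSF1A, the main receptor of TNF, and TNFRSF12A, the receptor of the ligand TWEAK, led with means over the 6 libraries of 36.1 and 33.7 FPKM, and their ranges of 30.4 to 42.5 and 26.6 to 40.2 FPKM overlapped. TNFRSF10B, the TRAIL receptor DR5, followed at 23.3 to 27.2 FPKM and overlapped TNFRSF12A. Next came TNFRSF21, the death receptor DR6, at 18.1 to 22.1 FPKM, and TNFRSF10A, the TRAIL receptor DR4, at 12.9 to 15.3 FPKM. All 5 are receptors, and the level of TNFRSF1A lay above that of 94.5% of protein-coding genes. CD40, a receptor best known from B cells and macrophages, and TNFRSF10D, a TRAIL decoy receptor, overlapped at 6.89 to 8.04 and 5.69 to 7.04 FPKM.

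A further 6 members had means between 1 and 5 FPKM and held the best expressed ligands. These were CD70, the ligand of CD27 (mean 4.41 FPKM), TNFSF10, which encodes TRAIL (3.88), LTB, the membrane-bound lymphotoxin beta (3.04), and TNFSF9, the ligand of 4-1BB, a costimulatory receptor on T cells (3.01). Beside them stood TNFRSF11A, which encodes RANK (2.86 FPKM), and LTBR, the lymphotoxin beta receptor (2.27). The other 32 members had means under 1 FPKM, and 6 of these had no count in any library. Neighbours in the order from CD70 to TNFRSF11A overlapped across the libraries.

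**Figure D1:**
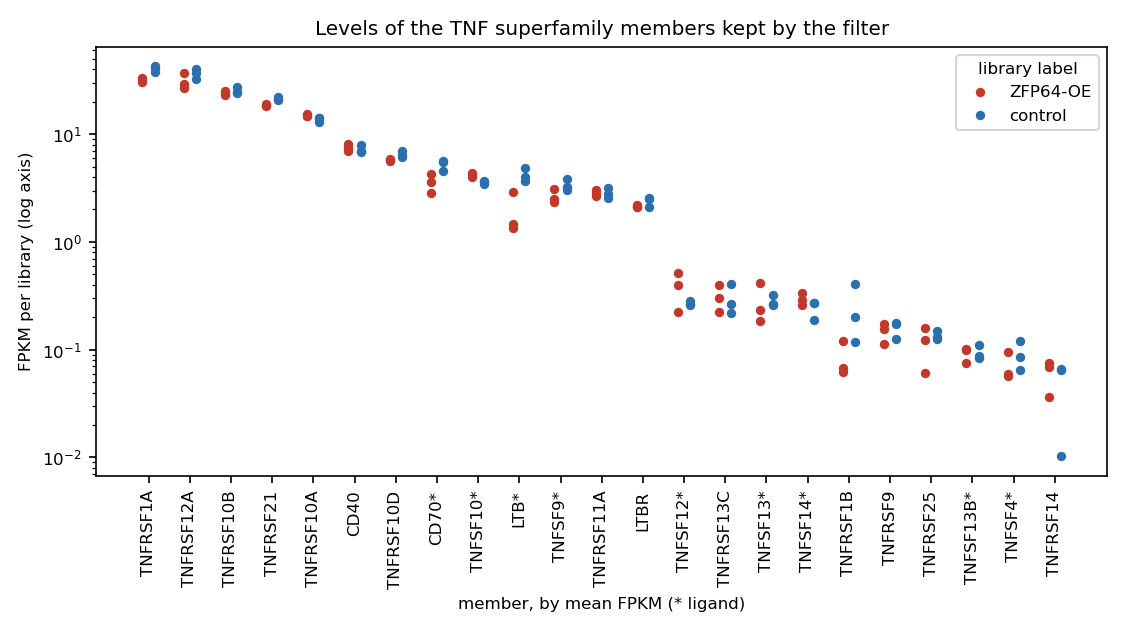
FPKM in each library (log axis) of the 23 members kept by the filter on low counts, ordered by mean FPKM; points are libraries, coloured by label, and asterisks mark ligands. Members fall into 13 at 1 FPKM or more, from TNFRSF1A (mean 36.1) to LTBR (2.27), and a lower group from TNFSF12 (0.323) downwards.

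Of the 45 members, 23 passed the filter on low counts and were tested. In the test over all 19173 genes kept (quasi-likelihood F-test of edgeR, p-values adjusted by Benjamini-Hochberg), 4 members were called lower in the libraries labelled ZFP64-OE, LTB, CD70, TNFRSF1B and TNFRSF1A. These are 17.4% of the members tested, beside 5.81% of all genes called in either direction and 4.03% called lower. TNFRSF1B reached the filter through the control-labelled group, in which it was higher, and without it 3 of 22 members were called, 13.6%. No member was called higher by edgeR, beside 1.78% of all genes, nor by DESeq2 or limma-voom, and 1 member was higher and 5 lower at an unadjusted p under 0.05. The groups did not overlap for 9 of the 23 members, 39.1% beside 21.9% of all genes. The median log2 fold change was -0.07 over the 23 members and -0.02 over all genes tested. No test of the list was made, so these shares describe it only.

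**Figure D2:**
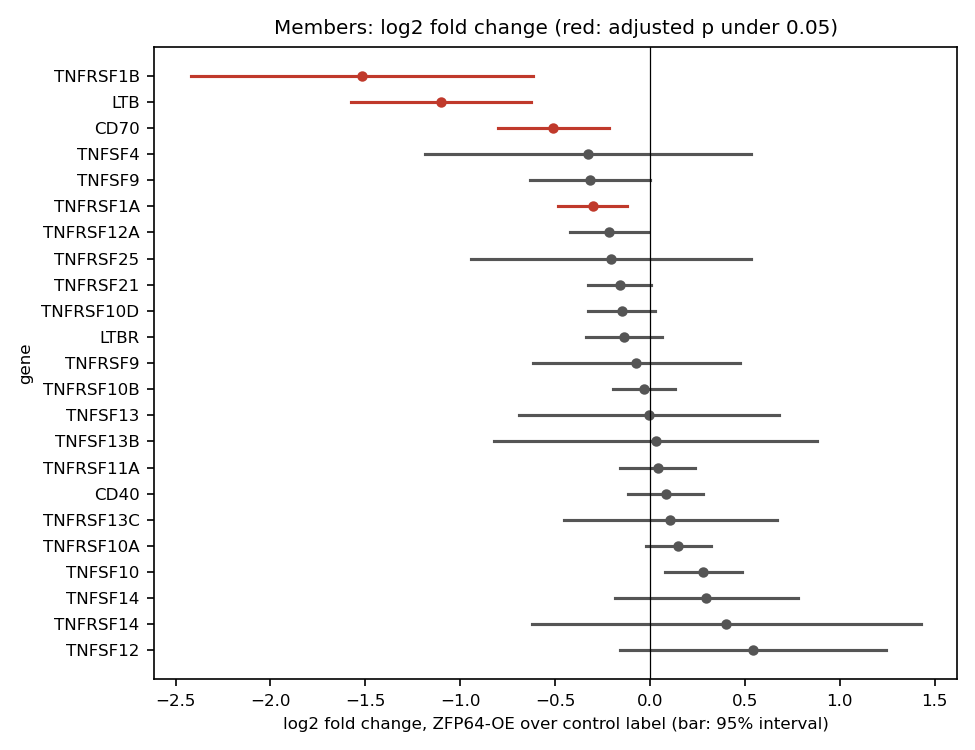
Log2 fold change of each tested member (dots) with its 95% interval (bars), libraries labelled ZFP64-OE over those labelled control; red marks an edgeR adjusted p under 0.05. The 4 red members lie below 0, from TNFRSF1B (-1.52) to TNFRSF1A (-0.30).

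LTB (ENSG00000227507, chromosome 6, bases 31580525 to 31582522, minus strand, GRCh38) anchors lymphotoxin alpha to the membrane and signals through LTBR. Its levels were 2.13, 2.29 and 4.45 CPM in replicates 1 to 3 labelled ZFP64-OE and 5.89, 5.97 and 7.05 CPM in those labelled control. The groups did not overlap, and replicate 3 labelled ZFP64-OE stood closest to the controls. LTB was 2.14-fold lower (log2 fold change -1.10, standard error 0.222, edgeR adjusted p = 0.00726), with means of 2.96 ± 1.29 and 6.30 ± 0.648 CPM (SD, n = 3 each). The call held in each of the 6 fits that left out 1 library, with log2 fold changes from -0.91 to -1.50 and adjusted p from 2.91e-06 to 0.0429. It was lost on the FPKM scale by limma, at an adjusted p of 0.0827 with a pseudocount of 0.1 and 0.0814 with 1.

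The partners of LTB were not called. LTA, the soluble lymphotoxin alpha, had 0 to 4 counts in a library. LTBR was at 13.1, 13.2 and 13.6 CPM in replicates 1 to 3 labelled ZFP64-OE and at 13.6, 15.2 and 15.1 CPM in the controls. Its groups met at their edges without overlapping, and it did not pass (log2 fold change -0.14, 95% interval -0.34 to 0.06, edgeR adjusted p = 0.471). TNFSF14, which encodes LIGHT, another ligand of LTBR, was low at 1.26 to 1.65 and 0.942 to 1.25 CPM and did not pass (log2 fold change 0.30, adjusted p = 0.529).

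CD70 (ENSG00000125726, chromosome 19, 6583183 to 6604103 on the minus strand) is a costimulatory ligand for T cells that some tumours also make. It was at 4.48, 5.66 and 6.54 CPM in replicates 1 to 3 labelled ZFP64-OE and at 7.26, 8.15 and 8.26 CPM in those labelled control. The groups did not overlap. CD70 was 1.42-fold lower (log2 fold change -0.51, standard error 0.140, edgeR adjusted p = 0.0355), with means of 5.56 ± 1.03 and 7.89 ± 0.549 CPM (SD, n = 3 each). The call was lost on the FPKM scale (adjusted p = 0.136 and 0.141), without ZFP64-OE-labelled replicate 1 or 2 (0.228 and 0.0878) and without replicate 2 or 3 labelled control (0.136 and 0.0929). CD27, its receptor on lymphocytes, had 0 to 6 counts in a library. TAPBPL on the same strand and an antisense gene together share 39.1% of the exon bases of CD27, so its count is uncertain.

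**Figure D3:**
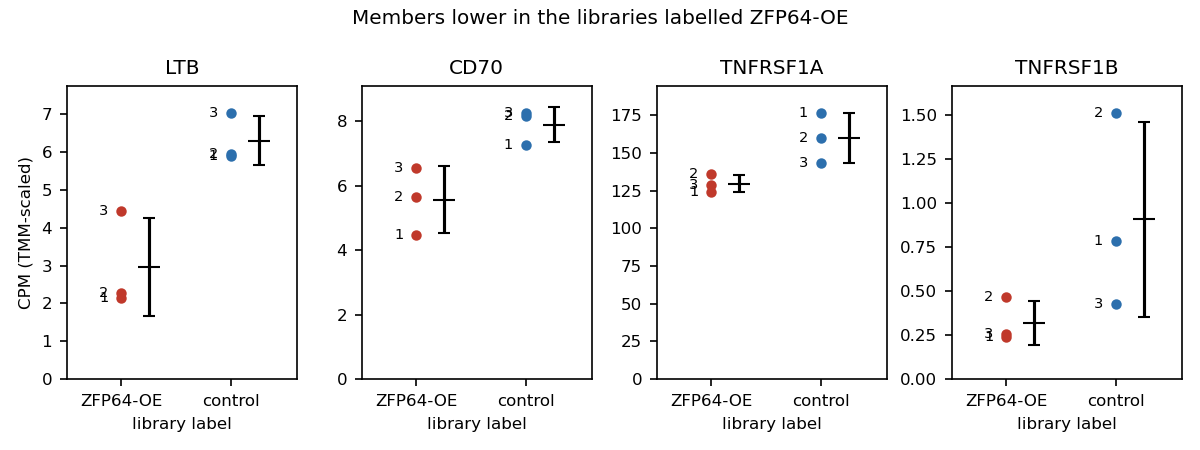
CPM (TMM-scaled) of the 4 members called lower; points are libraries with their replicate number, and bars show the mean and SD of 3 libraries. LTB, CD70 and TNFRSF1A do not overlap between the labels, while TNFRSF1B overlaps and has its highest value, 1.51 CPM, in replicate 2 labelled control.

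TNFRSF1A (ENSG00000067182, chromosome 12, 6328757 to 6342114 on the minus strand) encodes TNFR1, the death-domain receptor through which soluble TNF acts on most cells. Replicates 1 to 3 labelled ZFP64-OE were at 124, 136 and 129 CPM and those labelled control at 177, 160 and 143 CPM. The groups did not overlap, but 136 and 143 CPM lay close together. TNFRSF1A was 1.23-fold lower (log2 fold change -0.30, standard error 0.0878), and its edgeR adjusted p of 0.0475 was just under the threshold of 0.05. The direction was the same in all 14 alternatives and the call in 5 of them; leaving out any 1 library other than replicate 3 labelled control ended the call (adjusted p from 0.0781 to 0.194). With RLE scaling the adjusted p was 0.0714, and with DESeq2 0.0534.

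TNFRSF1B (ENSG00000028137, chromosome 1, 12167003 to 12209228 on the plus strand) encodes TNFR2, the second TNF receptor, which lacks a death domain and is found mainly on immune and endothelial cells. It had 9, 18 and 9 counts in replicates 1 to 3 labelled ZFP64-OE and 20, 58 and 14 in those labelled control, or 0.240, 0.463 and 0.255 against 0.785, 1.51 and 0.425 CPM. The groups overlapped, since replicate 2 labelled ZFP64-OE lay above replicate 3 labelled control. TNFRSF1B was 2.87-fold lower, or -1.52 on the log2 scale (standard error 0.428, edgeR adjusted p = 0.0447). Without replicate 2 labelled control it was -0.88 with an adjusted p of 0.453, and the call was also lost without replicate 1 or 3 labelled ZFP64-OE or replicate 1 labelled control (adjusted p = 0.155, 0.0907 and 0.0515). Nor did TNFRSF1B pass with DESeq2 (adjusted p = 0.0625), limma-voom (0.0920) or limma on the FPKM scale (0.229 and 0.283). Only 1 library labelled ZFP64-OE reached the count minimum of the filter, against 3 labelled control, so TNFRSF1B was tested through the group in which it was higher. In FPKM, the level of TNFRSF1A was 277 to 489 times that of TNFRSF1B in the libraries labelled ZFP64-OE and 100 to 317 times in the others.

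TNF itself, the shared ligand of both receptors, was left out by the filter. It had 3, 4 and 5 counts in replicates 1 to 3 labelled ZFP64-OE and 7, 11 and 8 in those labelled control. The counts did not overlap, and in the fit with no filter the difference did not pass (edgeR adjusted p = 0.315).

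**Figure D4:**
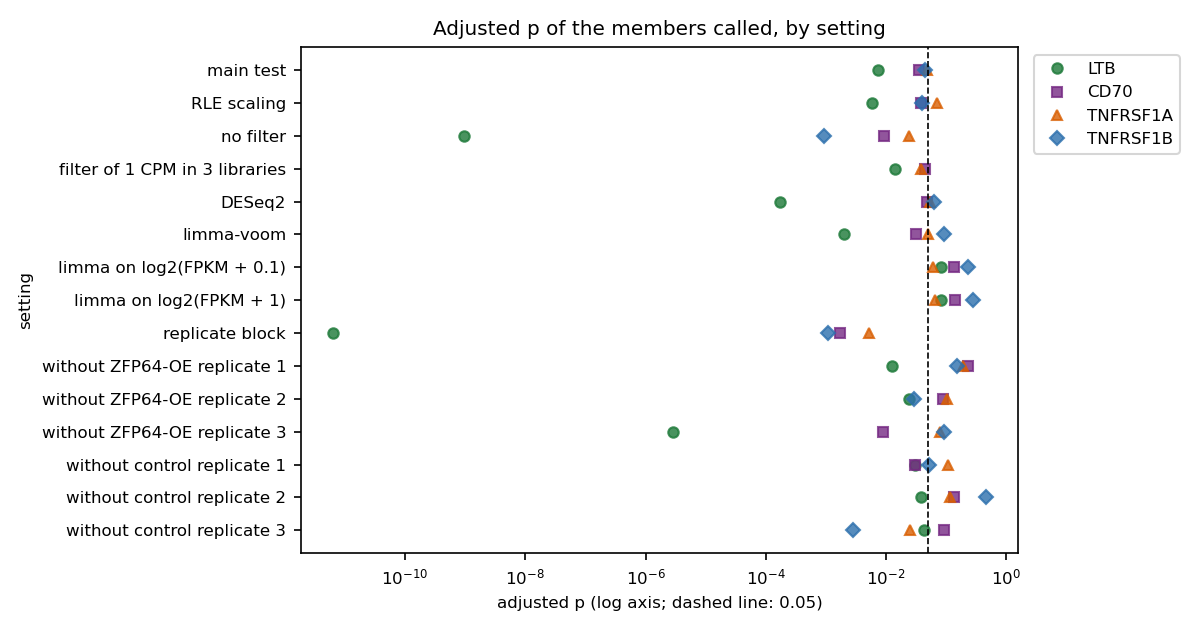
Adjusted p (log axis) of the 4 members called, in the main test and in the alternatives, 14 for each but TNFRSF1B, which has 13; the dashed line is 0.05. LTB lies left of the line except on the FPKM scale, while TNFRSF1A and TNFRSF1B each keep the call in 5 alternatives and CD70 in 8.

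None of the TRAIL genes passed the test. TNFSF10, the TRAIL ligand that kills many transformed cells, was at 15.1, 15.2 and 13.6 CPM in replicates 1 to 3 labelled ZFP64-OE and at 12.3, 11.98 and 11.999 CPM in the controls. Its groups did not overlap, and its log2 fold change of 0.28 (95% interval 0.08 to 0.48) had an edgeR adjusted p of 0.106 and one between 0.0590 and 0.339 in the alternatives. TNFRSF10B was at 119 to 125 CPM in the ZFP64-OE-labelled libraries and 119 to 133 CPM in the others (log2 fold change -0.03, 95% interval -0.19 to 0.13). TNFRSF10A was at 43.9 to 44.4 and 36.1 to 43.4 CPM (0.15, edgeR adjusted p = 0.334), and TNFRSF10D, a decoy with a truncated death domain, at 20.0 to 21.1 and 21.8 to 24.3 CPM (-0.15, adjusted p = 0.366). TNFRSF10C, the decoy held by a lipid anchor, had 4 to 14 counts in a library. Reads of this gene can be shared among its neighbouring copies, and 39.3% of its exon bases overlap genes on the same strand, so its value is uncertain. For TNFRSF10A, 16.6% of the exon bases overlap genes on the opposite strand.

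As shares of the FPKM of these 4 receptors, TNFRSF10A made up 32.8% to 33.4% in the libraries labelled ZFP64-OE and 28.9% to 32.0% in those labelled control. Both decoys together made up 12.5% to 13.5% and 14.2% to 14.96%. Neither range overlapped, and neither share was tested.

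The other death-domain receptors ranged from abundant to a few counts. TNFRSF21, which in mice restrains T cell responses, was at 64.7 to 70.7 CPM in the ZFP64-OE-labelled libraries and 72.8 to 82.7 CPM in those labelled control, with no overlap, and did not pass (log2 fold change -0.16, edgeR adjusted p = 0.289). TNFRSF25, the receptor DR3, had 10 to 24 counts (-0.21, adjusted p = 0.813). FAS (chromosome 10, 88990582 to 89015785) had 0, 3 and 2 counts in replicates 1 to 3 labelled ZFP64-OE and 0 in each control, where 3 counts correspond to at most 0.118 CPM. FASLG, its ligand, had 1 count in 1 library. The receptor of ectodysplasin, EDAR, had 2 to 9 counts, and NGFR, the low-affinity neurotrophin receptor, had 4 to 10. Genes on the opposite strand share 27.1% of the exon bases of NGFR. EDA2R, an ectodysplasin receptor without a death domain, had 1 count in all.

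Of the receptors that bind TRAF adaptors 8 were tested, and TNFRSF1B was the 1 call, 12.5% beside 5.81% of all genes, with the limit on its filter given above. TNFRSF12A, which is induced by growth factors and injury in liver, was at 50.2, 54.9 and 67.5 CPM in replicates 1 to 3 labelled ZFP64-OE and at 62.5, 72.4 and 65.5 CPM in the controls. Replicate 3 labelled ZFP64-OE lay within the control range, and it was also the highest of its group for LTB and CD70. TNFRSF12A did not pass (log2 fold change -0.22, edgeR adjusted p = 0.228) and was called lower without that library (-0.34, adjusted p = 0.0191). CD40 was at 18.2 to 20.7 and 16.6 to 19.5 CPM (0.08, 95% interval -0.12 to 0.28), and TNFRSF11A, the RANK receptor of bone-resorbing cells, at 24.8 to 28.0 and 22.1 to 27.9 CPM (0.04, 95% interval -0.16 to 0.24).

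Of the receptors of lymphocytes, 3 were tested at low levels. TNFRSF13C, which encodes the B cell receptor for BAFF, had 23 to 63 counts (log2 fold change 0.11), TNFRSF9, which encodes 4-1BB, 21 to 42 (-0.07) and TNFRSF14, a receptor of LIGHT, 2 to 18 (0.40). None of these passed (edgeR adjusted p = 0.881, 0.920 and 0.726). TNFRSF17, which encodes the plasma cell receptor BCMA and was left out by the filter, had 3 to 11 counts.

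Costimulatory and B cell ligands other than CD70 did not pass. TNFSF9 was at 3.89, 5.20 and 4.08 CPM in replicates 1 to 3 labelled ZFP64-OE and at 5.53, 6.15 and 4.71 CPM in the controls. Its groups overlapped through replicate 2 labelled ZFP64-OE (log2 fold change -0.32, 95% interval -0.63 to 0.00, edgeR adjusted p = 0.266). TNFSF4, the ligand of OX40, had 8 to 18 counts (-0.33, adjusted p = 0.734). TNFSF13, which encodes APRIL, and TNFSF13B, which encodes BAFF, had 16 to 33 and 8 to 12 counts, with log2 fold changes of -0.00 and 0.03 and 95% intervals of -0.69 to 0.68 and -0.82 to 0.88. TNFSF12, which encodes TWEAK, the ligand of TNFRSF12A, had 29, 39 and 15 counts in replicates 1 to 3 labelled ZFP64-OE and 13, 19 and 17 in the controls (0.54, adjusted p = 0.409). The read-through gene TNFSF12-TNFSF13, which had 0 or 1 count in each library, shares 55.5% of the exon bases of TNFSF13. Together with an opposite-strand gene it shares 33.2% of those of TNFSF12.

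Of the 22 members left out by the filter, 14 are receptors and 8 are ligands, and none had more than 49 counts over all libraries. No count was found for TNFRSF11B, the RANK ligand decoy osteoprotegerin, TNFRSF13B, a BAFF receptor of B cells, TNFRSF4 and TNFRSF18, which encode OX40 and GITR on T cells, TNFSF8, the ligand of CD30, and TNFRSF6B, the soluble decoy of FAS ligand. The floor of 3 counts is 0.0772 to 0.118 CPM, and it covers counting error only. For TNFRSF6B the 0 cannot be read as a level, because all of its exon bases are shared with RTEL1-TNFRSF6B, which had 39 to 76 counts, or an opposite-strand gene. TNFRSF8, the receptor CD30, had 1 to 4 counts in a library, TNFSF15, a ligand of DR3, 0 to 4, CD40LG, the ligand of CD40, 0 or 1, and TNFSF18, the ligand of GITR, and TNFRSF19 1 count each in all. TNFSF11, which encodes RANK ligand, had 8, 2 and 9 counts in replicates 1 to 3 labelled ZFP64-OE and 1, 1 and 0 in the controls, and in the fit with no filter it did not pass (edgeR adjusted p = 0.0702).

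EDA and RELT, superfamily genes outside the member rule, did not pass. EDA, which encodes ectodysplasin, had 12 to 24 counts (log2 fold change 0.21, edgeR adjusted p = 0.793), and RELT, a receptor, was at 9.31 to 12.1 and 8.81 to 11.2 CPM (0.15, adjusted p = 0.552).

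Downstream of the receptors, FADD had the smallest adjusted p among 43 adaptors and proximal signalling genes, of which 42 were tested. FADD, which links death receptors to caspase-8, was at 4.51, 5.33 and 8.24 CPM in replicates 1 to 3 labelled ZFP64-OE and at 10.6, 12.1 and 10.1 CPM in those labelled control. The groups did not overlap, and replicate 3 labelled ZFP64-OE was again the closest to the controls. FADD was 1.82-fold lower (log2 fold change -0.87, standard error 0.175, edgeR adjusted p = 0.00705). The call held without any 1 library, with an adjusted p of at most 0.0439, and was lost on the FPKM scale (0.0818 and 0.0831). An antisense gene listed at 0 in every library covers 54.9% of the exon bases of FADD, and the strand setting of the counting is not given in the sources used here.

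EDARADD, the adaptor of EDAR, was the other call, at 3.87, 4.84 and 4.42 CPM in replicates 1 to 3 labelled ZFP64-OE and 7.14, 6.98 and 5.80 CPM in the controls, without overlap (-0.60 on the log2 scale, edgeR adjusted p = 0.0122). It was lost without replicate 1 labelled ZFP64-OE (0.0745) or replicate 2 labelled control (0.0724), and 32.7% of its exon bases overlap the pseudogene ENO1P1, which was listed at 0. The 2 calls are 4.76% of the adaptors tested, beside the 5.81% of all genes called. None was called higher by edgeR, while 6 were higher and 5 lower at an unadjusted p under 0.05, and DESeq2 called 2 higher. The median log2 fold change of the list was 0.04.

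Other genes of the death and NF-kB branches did not pass. CASP8, the initiator caspase, was at 109 to 119 CPM in the ZFP64-OE-labelled libraries and 107 to 115 CPM in the others (log2 fold change 0.04, 95% interval -0.12 to 0.20), and CFLAR, its inhibitor, at 75.7 to 81.6 and 75.3 to 78.5 CPM (0.03). RIPK1, the kinase of TNFR1 signalling, did not pass at a log2 difference of 0.06 (edgeR adjusted p = 0.734), nor did TRAF2 at -0.13 (0.410). BIRC3, the TNF-induced ubiquitin ligase cIAP2, was at 211, 182 and 211 CPM in replicates 1 to 3 labelled ZFP64-OE and at 168, 138 and 182 CPM in the controls (0.31, adjusted p = 0.0762), and passed in 4 of 14 alternatives. RIPK3, the kinase of necroptosis, had no count in any library. These 6 genes were chosen after their values were seen.

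**Figure D5:**
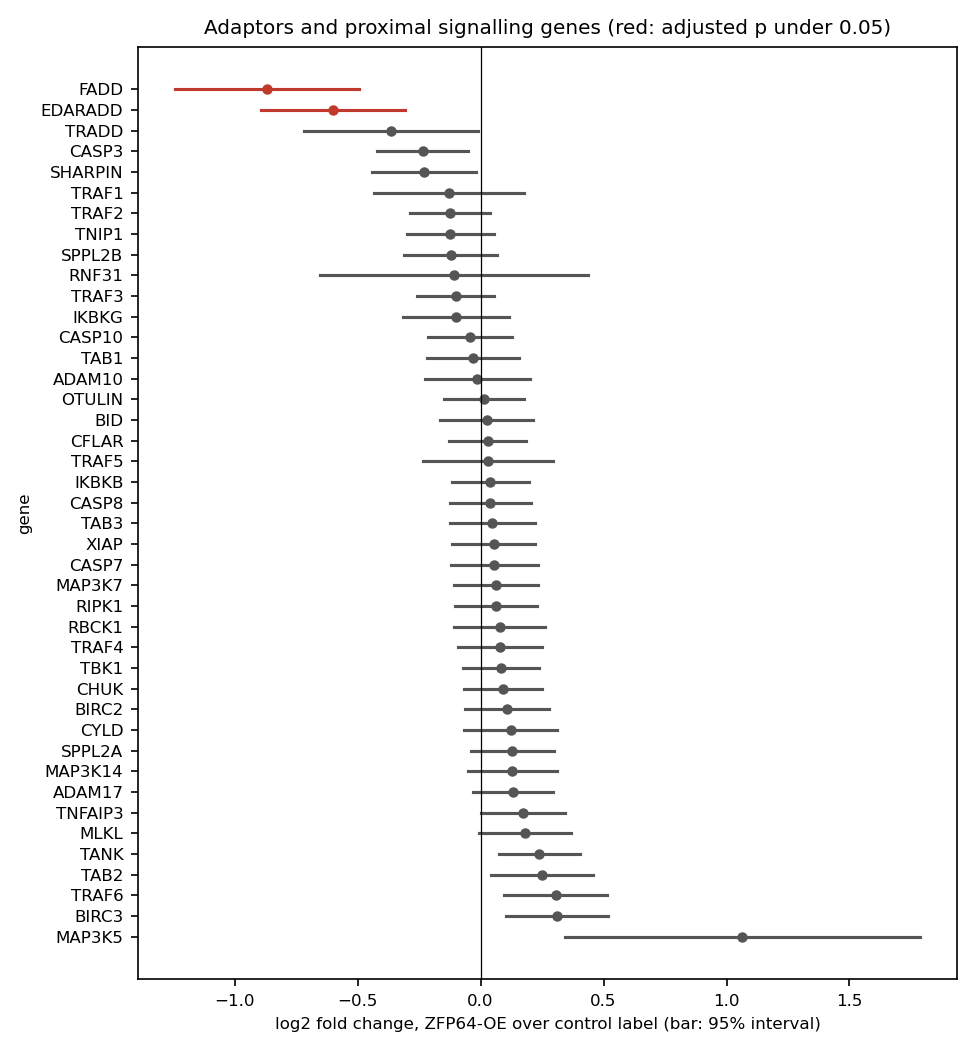
Log2 fold change (dots) with 95% interval (bars) of the 42 tested adaptors and proximal signalling genes, libraries labelled ZFP64-OE over those labelled control; red marks an edgeR adjusted p under 0.05. FADD (-0.87) and EDARADD (-0.60) are the genes in red, and the median of the list is 0.04.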

How the data were processed

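Trizol RNA went into Illumina TruSeq libraries, per the labels' protocols. The submitters' processing notes name HISAT2 and GRCh38; which program counted, with which annotation and strand setting, is not given here. The deposited count table holds raw counts per Ensembl gene. The deposited FPKM table follows from it by gene length and library total. No per-sample column was left unused. Columns were assigned by the codes in the sample titles. Positions and overlaps came from GENCODE v29 on GRCh38, and promoters from RefSeq.

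Genes were filtered with filterByExpr (at least 10 counts, total of 15), scaled by TMM and tested with the quasi-likelihood F-test of edgeR 4.0.16 in R 4.3.3, with Benjamini-Hochberg adjustment over 19173 genes, threshold 0.05. Standard errors are the log2 fold change over the square root of F. The tests were checked on simulated counts. Alternatives were RLE scaling, no filter, a filter of 1 CPM in 3 libraries, DESeq2 1.42.0, limma-voom and limma on log2 FPKM (limma 3.58.1, pseudocounts 0.1 and 1), a replicate block, and leaving out each library. The 23 members and 42 adaptors tested were fitted with all genes.

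Members, lists and named genes were chosen with earlier results of these data known. The text names every member, ZFP64, EDA, RELT, adaptors past the threshold, other adaptor-list genes chosen after their values were seen, and markers, among them the most abundant.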

Additional observations from a re-analysis of the deposited data

How the results depend on the processing

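None of the 4 called members changed direction in the alternatives run. Of the 23 tested members, 8 changed sign in at least 1 alternative, and none of these was called in any.

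With limma on log2 FPKM plus 0.1 or 1, 470 and 439 genes were called (357 and 326 lower, 113 higher in each). By that test 0 members and 0 adaptors passed, with 1 member higher and 7 lower, and 4 adaptors higher and 4 lower, at an unadjusted p under 0.05 at either pseudocount. DESeq2 called 2 members, both lower, and 4 adaptors, 2 of them higher. With no filter 518 genes were called higher, among them 1 adaptor.

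Deviations of samples of the same number were weakly correlated (0.0183, 0.0198 and 0.0968). Each replicate labelled ZFP64-OE correlated best with a control of another number. With 3 libraries per group these correlations cannot decide whether the numbers are a pairing. With the replicate block 2096 genes were called, 749 higher and 1347 lower, with 5 members, all lower, and 8 adaptors, 5 of them higher.

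Leaving out 1 library gave between 587 and 1535 genes called, 160 to 585 higher and 427 to 1011 lower. It gave 1 to 3 members called, all lower, and 1 to 4 adaptors called, 0 to 2 higher and 1 to 3 lower. Without replicate 1 labelled ZFP64-OE or replicate 2 labelled control LTB was the only member called; the cause was not tested. Of the 32 members under 1 FPKM, 10 were tested.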

Other observations

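Superfamily genes often lie side by side in the genome, and 24 of the 45 members fell into 9 groups with gaps of at most 1000000 bases. LTA, TNF and LTB lie within 10469 bases on chromosome 6 in the MHC. LTB was called lower at 2.96 ± 1.29 against 6.30 ± 0.648 CPM (SD, n = 3 each). TNF, between the other two, had 12 counts in all in the libraries labelled ZFP64-OE and 26 in those labelled control, and LTA had 9 and 5. On chromosome 12, TNFRSF1A, LTBR and CD27 lie within 122962 bases, with log2 fold changes of -0.30 and -0.14 for the first 2. CD70 lies between TNFSF9 and TNFSF14 within 139590 bases of chromosome 19. Their log2 fold changes were -0.32 for TNFSF9, -0.51 for CD70 and 0.30 for TNFSF14, of which only that of CD70 passed (edgeR adjusted p = 0.0355), and the differences between them were not tested.

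The summed FPKM of the 28 receptors was 133 to 147 in the libraries labelled ZFP64-OE and 154 to 165 in those labelled control. The 17 ligands summed to 13.7 ± 1.46 and 17.5 ± 1.26 FPKM (SD, n = 3 each). Neither sum overlapped between the labels, and the sums were not tested. They include the called members TNFRSF1A, TNFRSF1B, LTB and CD70, so they are not separate from those calls.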
